A study of Mus musculus with 47 samples.

Results

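Splicing factors of the Srsf, Hnrnp, Rbfox, Mbnl, Celf, Nova and Ptbp families were followed in the medial prefrontal cortex (PFC) of mice during withdrawal from chronic intermittent ethanol vapor (CIE). The members were all probesets with exactly 1 annotated gene symbol that begins with one of these family names. They were 143 of the 45037 probesets on the Affymetrix Mouse430_2 array, and they measured 46 of the 18193 genes that had such probesets. A probeset is a group of short probes that together give 1 value for a stretch of transcript. Of the 46 genes, 12 had 1 probeset and 34 had from 2 to 7, which allowed the probesets of a gene to be set against each other. The Hnrnp family held 58 probesets of 19 genes, Srsf 33 of 10, Celf 18 of 6, Rbfox and Mbnl 11 of 3 each, Ptbp 8 of 3, and Nova 4 of 2.

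All mice were adult male C57BL/6J. CIE mice were kept in ethanol vapor of 10 to 13 mg per liter for daily sessions of 16 hours on 4 days, with 7 days off between, over 4 cycles, and were injected with ethanol at 1.6 g/kg ahead of each cycle. Control (Ctrl) mice breathed air and were given saline. Both treatments included pyrazole at 1 mmol/kg, an inhibitor of alcohol dehydrogenase, so that no group was free of it. The final vapor session was followed by tissue collection at once (0h) or after 8h, 72h or 7d, with separate mice in every group: CIE 0h, Ctrl 0h, CIE 8h, Ctrl 8h, CIE 72h, Ctrl 72h, CIE 7d and Ctrl 7d. Each array held the RNA of 1 mouse, and there were 6 mice per group except CIE 8h with 5, or 47 arrays in all.

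SR proteins, encoded by the Srsf genes, bind exonic enhancers through RNA recognition motifs and recruit the spliceosome through a domain rich in arginine and serine. Hnrnp proteins coat nascent transcripts and often repress the exons that SR proteins promote, and many members of both families keep their own level in check by splicing a premature stop into their own transcript. Rbfox, Nova, Celf, Mbnl and Ptbp proteins set cell-type-specific exon choices, and in neurons they act on transcripts of ion channels, receptors and synaptic scaffolds.

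Values are log2 expression values, and an ethanol effect is the mean of the CIE mice minus the mean of the Ctrl mice at a time point, with its standard error (SE) from limma. A probeset was called at a false discovery rate (FDR, the Benjamini-Hochberg adjusted p over all 45037 probesets) of 0.01 or less. All FDR values in the text are from that fit or, for pairs, from the same fit on differences. The values of different probesets are not comparable as amounts of RNA. In dissected tissue, fewer cells that express a gene and less RNA per cell cannot be told apart.

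Some arrays stood apart. Averaged over the other arrays, each array's correlation lay between 0.967 and 0.994, and the lowest 3 were CIE 8h mouse 15 (0.967), CIE 0h mouse 17 (0.985) and CIE 72h mouse 3 (0.986). The labels place 5 arrays, all of 8h, in repeat group 2, namely CIE mice 15 and 23 and 3 Ctrl mice, and within repeat group 1 there were 3 CIE and 3 Ctrl mice at 8h. Markers of striatal neurons, a neighbouring tissue, were also uneven at 0h: the mean of the 7 measured markers ran between 8.76 and 10.7 in CIE mice and between 8.48 and 9.12 in Ctrl mice, with all 7 higher in CIE and 0 called.

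At 0h, the end of the last vapor session, 12 of the 143 member probesets of 10 genes were called, 5 higher and 7 lower in CIE. That is 8.39% of members, beside 7.28% of all probesets (3.69% higher and 3.58% lower). The splicing factors as a whole were thus called about as often as the rest of the array, and the median effect over them was -0.02 beside 0.00 over all probesets. Of 33 Srsf probesets 4 fell, 3 of them of Srsf3, and 1 rose. Of 18 Celf probesets 1 was called, and 16 had a positive effect (median 0.10), beside 22515 of all 45037 probesets. Differences between families were not tested. Srsf3 and Srsf6 (SR proteins), Hnrnpa2b1, Hnrnph1 and Nova2 fell on at least 1 probeset, and Srsf2, Hnrnpd, Rbfox2, Ptbp2 and Celf2 rose on 1.

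**Figure D1:**
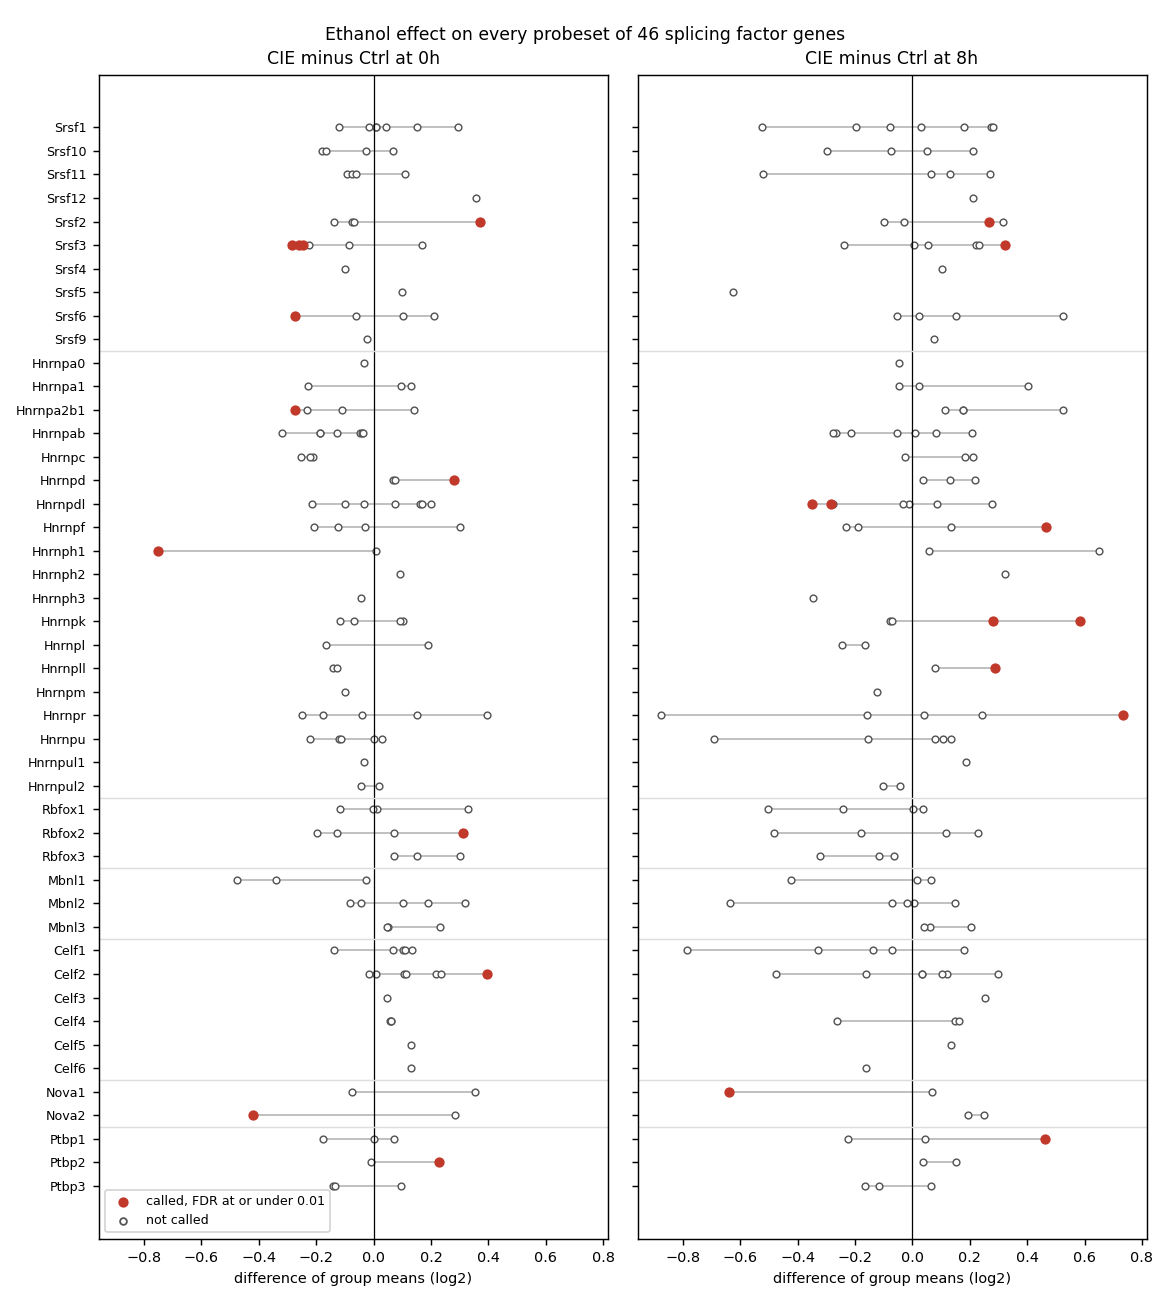
Ethanol effect (CIE minus Ctrl, log2) of all 143 probesets at 0h (left) and 8h (right), 1 row per gene and 1 point per probeset, with a line joining the probesets of a gene and grey lines between families. Filled points were called; the 12 at 0h and 11 at 8h lie on both sides of 0, and most genes have probesets on both sides.

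Srsf3 encodes the smallest SR protein and had the most called probesets at 0h. On probeset 1416152_a_at the CIE 0h mice had values of 10.57 to 10.85 (median 10.67), and the Ctrl 0h mice 10.82 to 11.19 (median 10.98). The ranges overlapped slightly, and the effect was -0.29 ± 0.07 (FDR 0.0021). On 1454993_a_at CIE mice lay between 10.70 and 10.94 (median 10.81) and Ctrl mice between 10.94 and 11.27 (median 11.01), without overlap, and the effect was -0.26 ± 0.06 (FDR 0.0023). Probeset 1416150_a_at ran between 10.54 and 10.76 (median 10.65) in CIE and between 10.80 and 11.01 (median 10.88) in Ctrl, also without overlap (-0.25 ± 0.06, FDR 0.0059). Of the other 3 Srsf3 probesets, 1416151_at had an effect of -0.22 (FDR 0.024), 1434512_x_at one of -0.09 and 1438215_at one of 0.17. Srsf3 was the 1 gene of the 10 called on more than 1 probeset at 0h.

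Srsf6, an SR protein that promotes exon inclusion, had values of 10.41 to 10.89 (median 10.60) in CIE 0h mice on 1448454_at, against 10.84 to 10.92 (median 10.90) in Ctrl 0h mice. The Ctrl mice were close together, 5 CIE mice lay below all of them and 1 among them, and the effect was -0.27 ± 0.06 (FDR 0.0026). Srsf2, an SR protein of nuclear speckles, moved the other way on 1 probeset. On 1427816_at CIE mice lay between 7.05 and 7.43 (median 7.21) and Ctrl mice between 6.64 and 7.12 (median 6.85), with some overlap, and the effect was 0.37 ± 0.08 (FDR 0.002). The other 3 Srsf2 probesets had effects between -0.14 and -0.07 and were not called.

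Among the Hnrnp genes, Hnrnpa2b1, whose protein carries mRNAs into neuronal processes, fell. CIE 0h mice had 11.82 to 12.12 (median 11.95) on 1420365_a_at and Ctrl 0h mice 12.11 to 12.41 (median 12.22), with an effect of -0.27 ± 0.06 (FDR 0.0016). The ranges overlapped at their edge only. This probeset and Srsf3 1454993_a_at are the brightest of their genes. When each gene was read from its brightest probeset alone, these were the 2 of 46 genes called at 0h, both lower, beside 7.44% of all genes. Hnrnph1, a protein that binds runs of G, had the largest effect of any member probeset at 0h. On 1437267_x_at CIE mice lay between 5.53 and 5.98 (median 5.67) and Ctrl mice between 6.24 and 6.83 (median 6.39), with no overlap (-0.75 ± 0.17, FDR 0.0019). On 1437267_x_at the Ctrl groups also differed among themselves, with lower Ctrl medians at each later time than at 0h (given below). The other Hnrnph1 probeset, 1415872_at, had an effect of 0.01. Affymetrix gives the suffix _x_at, as on 1437267_x_at, to probesets whose probes may also bind other transcripts. Hnrnpd, which binds AU-rich elements and controls mRNA decay, rose on 1457568_at, with CIE values of 10.69 to 10.93 (median 10.81) and Ctrl values of 10.34 to 10.69 (median 10.57). The ranges met at 10.69, and the effect was 0.28 ± 0.07 (FDR 0.0048).

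Regulators of neuronal exons moved both ways. Rbfox2, which promotes or represses exons by where it binds beside them, had the smallest p of all members at 0h: CIE 0h mice had 7.53 to 7.64 (median 7.60) on 1434938_at and Ctrl 0h mice 7.22 to 7.35 (median 7.29). The groups were tight and did not overlap (0.31 ± 0.06, FDR 0.00016). Of the 4 Rbfox2 probesets, 2 were higher and 2 lower in CIE at 0h (lowest effect -0.20), and only 1434938_at was called. Ptbp2, the neuronal form of the polypyrimidine tract binding protein, had 9.71 to 10.03 (median 9.79) in CIE and 9.50 to 9.77 (median 9.55) in Ctrl on 1423471_at (0.23 ± 0.06, FDR 0.0087), and its FDR was 0.0375 without CIE mouse 17 and 0.0187 with the striatal marker mean as a term. Nova2, a neuron-specific RNA-binding protein, fell on 1439099_at, with 3.96 to 4.36 (median 4.15) in CIE and 4.43 to 4.74 (median 4.64) in Ctrl (-0.42 ± 0.10, FDR 0.0034). The brighter Nova2 probeset, 1439192_at, had an effect of 0.28, and the other Ptbp2 probeset, 1423470_at, one of -0.01. Neither was called. Celf2, which controls splicing and mRNA stability, rose on 1444533_at, with 4.05 to 4.37 (median 4.19) in CIE and 3.57 to 4.20 (median 3.74) in Ctrl (0.40 ± 0.08, FDR 0.001). The called Nova2 and Celf2 probesets had mean levels of 4.33 and 3.91, near the low end of the array, whose lowest value was 2.82. No detection call was used here. Rbfox2, Hnrnpa2b1, Hnrnph1, Srsf2, Celf2 and Srsf3 1416152_a_at stayed called at 0h in each of the 12 refits that left out 1 mouse. The call was lost in 9 refits for Ptbp2, in 6 for Hnrnpd (FDR up to 0.0203, without Ctrl mouse 48), in 5 for Srsf3 1416150_a_at (up to 0.0188, without CIE mouse 17), in 2 for Nova2 and 1 for Srsf6 (up to 0.0139 and 0.0138, both without CIE mouse 5) and in 1 for Srsf3 1454993_a_at (0.0111, without Ctrl mouse 12).

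The called probesets and their later time points are drawn mouse by mouse in the plot of values, and effects on the probesets of Srsf3, Srsf6 and Hnrnpa2b1 called at 0h lay between -0.09 and 0.06 at 72h and 7d.

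**Figure D2:**
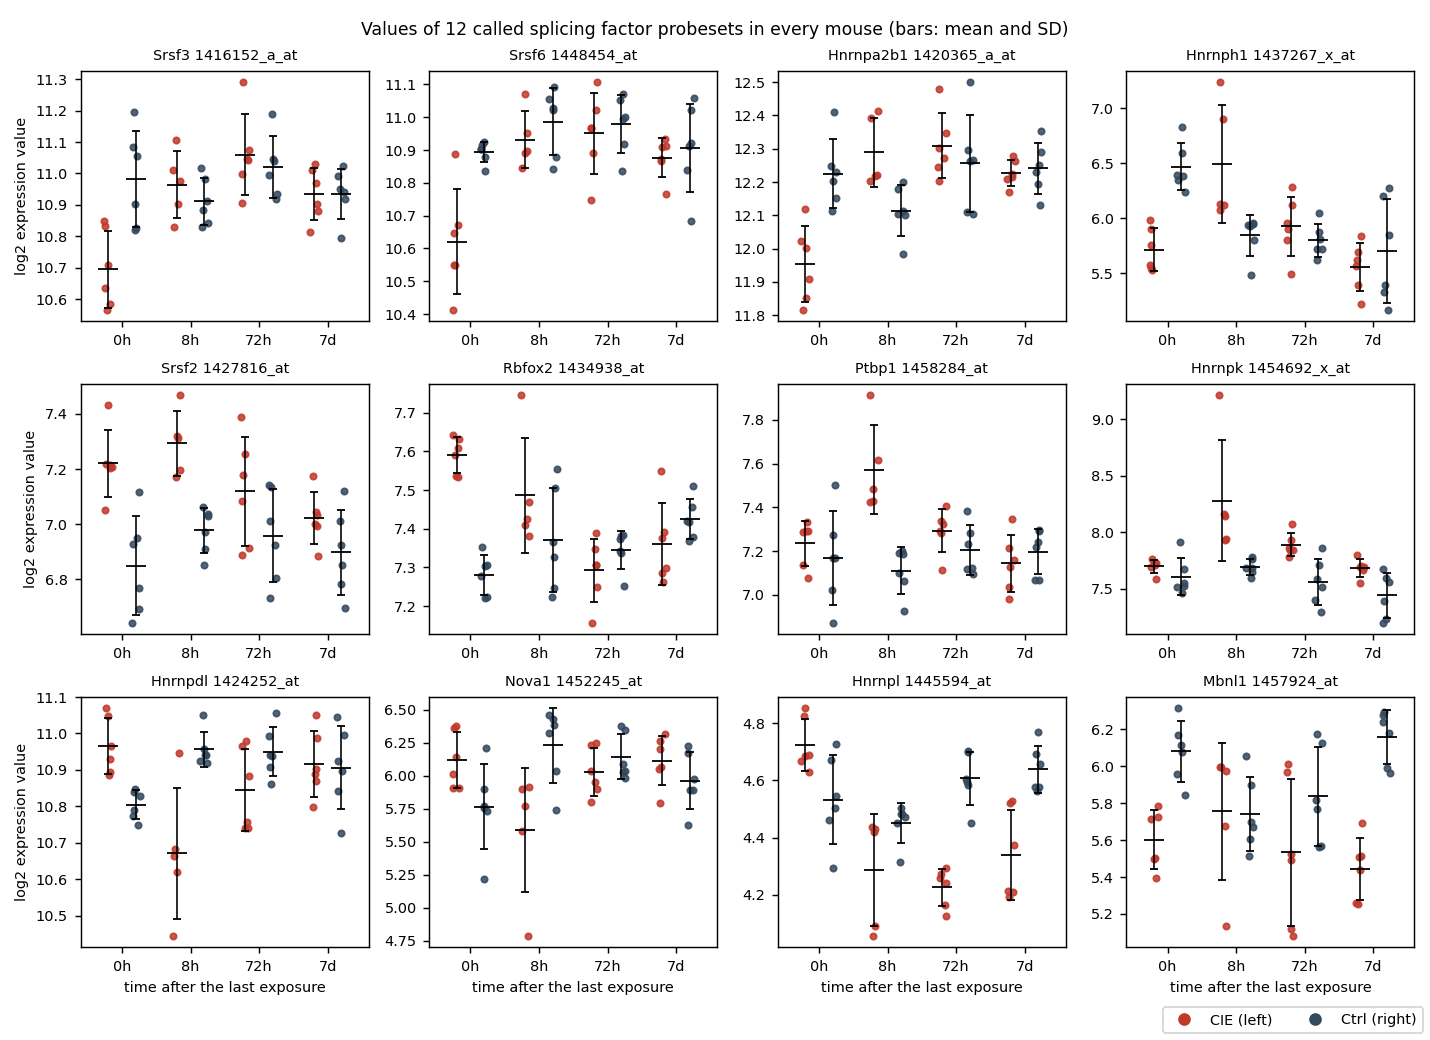
Log2 expression value in each of 47 mice (points) on 12 called probesets by time after the last exposure, CIE left of Ctrl, with mean and SD as bars. Rbfox2 1434938_at and Hnrnph1 1437267_x_at separate CIE from Ctrl mice at 0h, Ptbp1 1458284_at at 8h, Hnrnpl 1445594_at at 72h and Mbnl1 1457924_at at 7d.

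The promoters of the 3 genes with bright probesets that fell at 0h are shown, and they were chosen after the values were seen. Each of these genes also had an uncalled probeset with a positive effect at 0h (0.17 for Srsf3 1438215_at, 0.10 for Srsf6 1416721_s_at and 0.14 for Hnrnpa2b1 1433829_a_at). The 100 bases before the RefSeq start site (build GRCm38.p6) are given 5′ to 3′ on the gene's strand, with the hexamer TGACGT or its reverse complement ACGTCA, the core of the cyclic AMP response element, in capitals.
Srsf3 (chr17:29032560-29032659, plus strand): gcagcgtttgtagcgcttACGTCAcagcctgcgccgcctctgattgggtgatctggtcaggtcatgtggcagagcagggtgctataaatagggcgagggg
Srsf6 (chr2:162931408-162931507, plus strand): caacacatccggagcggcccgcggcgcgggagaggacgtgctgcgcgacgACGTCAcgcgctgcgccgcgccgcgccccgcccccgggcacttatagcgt
Hnrnpa2b1 (chr6:51469895-51469994, minus strand): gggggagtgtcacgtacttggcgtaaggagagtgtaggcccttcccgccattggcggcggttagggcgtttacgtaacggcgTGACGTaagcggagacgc

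Each of the 3 windows holds the hexamer once. It was searched on both strands in the 250 bases before the start, after the values were known, and 1971 of 27025 genes (7.29%) and 8 of the 41 member genes with a promoter entry (19.5%) held it at one or more of their start sites. Of the other genes called at 0h, Nova2, which fell, and Srsf2, Hnrnpd, Ptbp2 and Celf2, which rose, held no match. Hnrnph1, which fell, held it at 1 of 5 start sites, and Rbfox2 had no promoter entry. Celf3, Celf6, Hnrnpm and Srsf11 held it and were not called at 0h. A match of letters is a description of the sequence, not evidence of binding.

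At 8h, 11 member probesets of 9 genes were called, 8 higher and 3 lower in CIE. That is 7.69% of members, beside 3.39% of all probesets (2.28% higher and 1.11% lower). By suffix, 4 of 91 members ending in plain _at were called, 1 of 27 in _a_at, 2 of 14 in _s_at and 4 of 11 in _x_at. The called _x_at probesets, whose probes may also bind other transcripts, belonged to Srsf3, Hnrnpf, Hnrnpr and Hnrnpk. Shares by suffix over the whole array were not counted. Ptbp1, Hnrnpk, Hnrnpll, Hnrnpr, Hnrnpf, Srsf2 and Srsf3 rose on at least 1 probeset and Hnrnpdl and Nova1 fell. None of the 11 was called at 0h, and 0.437% of all probesets were called at both times. The count rested on few mice: it was 2 without CIE mouse 15 and 3 without CIE mouse 23, 5, 5 and 4 without Ctrl mice 66, 75 and 79, and 17 without CIE mouse 40. Without repeat group 2 it was 4, with repeat group as a term 19, with array weights 20, and with the 8h mice fitted alone 0. Shares over all probesets were not counted in these refits.

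Ptbp1, a repressor of neuronal exons that is low in mature neurons, had the smallest p at 8h. The CIE 8h mice had 7.48, 7.42, 7.43, 7.91 and 7.62 on 1458284_at (mice 40, 51, 69, 15 and 23), and the Ctrl 8h mice 6.93 to 7.20 (median 7.14). Every CIE mouse was above every Ctrl mouse, and the effect was 0.46 ± 0.09 (FDR 0.0008). It was 0.42 within repeat group 1 and 0.57 within repeat group 2, and without mouse 15 it was 0.38 (FDR 0.0062). The other 2 Ptbp1 probesets had effects of -0.22 and 0.04.

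Hnrnpk, which binds C-rich RNA, was called on 2 of 4 probesets. The other 2 were lower in CIE (lowest effect -0.08) and were not called. In the same order of mice, CIE values on 1454692_x_at were 7.94, 7.93, 8.14, 9.21 and 8.16, and Ctrl values 7.60 to 7.78 (median 7.68). Mouse 15 was far above the rest (0.59 ± 0.13, FDR 0.0029, and 0.35, FDR 0.015, without it). On the brighter 1460547_a_at the effect was 0.28 ± 0.07 (FDR 0.0062), and 0.23 (FDR 0.0366) without mouse 15.

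Hnrnpll, known in T cells for the splicing of Ptprc, had 11.50, 11.66, 11.64, 12.02 and 11.86 in CIE on 1427144_at, and 11.35 to 11.53 (median 11.46) in Ctrl. Mouse 40 lay within the Ctrl range, and the effect of 0.29 ± 0.06 (FDR 0.0034) was 0.13 within repeat group 1 and 0.52 within repeat group 2, and the call was lost without mouse 15 (0.22, FDR 0.0272). Of 6 Srsf3 probesets 5 were higher and 1 lower in CIE at 8h (lowest effect -0.24), and 1 was called. On that one, 1434512_x_at, values were 10.39, 10.39, 10.44, 10.77 and 10.67 in CIE and 10.05 to 10.31 (median 10.23) in Ctrl. All CIE mice were above all Ctrl mice (0.32 ± 0.07, FDR 0.0042; 0.26 within repeat group 1, 0.44 within repeat group 2, and 0.26, FDR 0.028, without mouse 15).

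Srsf2 rose on 1427504_s_at, its brightest probeset, with 11.42, 11.44, 11.47, 11.85 and 11.62 in CIE and 11.21 to 11.33 (median 11.31) in Ctrl. The effect was 0.27 ± 0.06 (FDR 0.0048), again without overlap, and 0.19 (FDR 0.0372) without mouse 15. Hnrnpr, a protein of axonal mRNA transport, had 9.99, 10.31, 10.41, 11.77 and 10.83 in CIE on 1437526_x_at and 9.75 to 10.15 (median 9.89) in Ctrl (0.74 ± 0.18, FDR 0.0065). Mouse 40 again lay within the Ctrl range, and the effect was 0.46 (FDR 0.0513) without mouse 15. Hnrnpf, which like Hnrnph1 binds runs of G, was called on 1437099_x_at (0.47 ± 0.11, FDR 0.0071, and 0.31, FDR 0.0576, without mouse 15). Other probesets of these 3 genes went the other way at 8h. Lower in CIE were 2 of 4 for Srsf2 (lowest effect -0.10) and 2 of 4 for Hnrnpf (-0.23). For Hnrnpr 2 of 5 were lower, and its lowest effect, -0.88, was the lowest of any member at 8h. None of these lower probesets was called, and their effects were not refitted without mouse 15. In that mouse Hnrnpr 1452030_a_at was 6.26, beside a median of 9.39 in the other CIE 8h mice.

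Hnrnpdl, a relative of Hnrnpd, was called at 8h on 2 of 7 probesets, both lower in CIE. Of the 7, 5 were lower and 2 higher, with a highest effect of 0.28 that was not called. On 1424252_at CIE mice had 10.44, 10.62, 10.66, 10.95 and 10.68 and Ctrl mice 10.92 to 11.05 (median 10.94). Here mouse 15 was the CIE mouse among the Ctrl values, and the effect of -0.29 ± 0.06 (FDR 0.0031) was -0.35 (FDR 0.00056) without it. The call was lost without CIE mouse 40 (FDR 0.0134). On 1428225_s_at the effect was -0.35 ± 0.08 (FDR 0.0065), and -0.23 (FDR 0.0512) without mouse 15. Nova1, a neuron-specific regulator of exons in synaptic transcripts, had 5.77, 5.92, 5.90, 4.79 and 5.58 in CIE on 1452245_at and 5.74 to 6.46 (median 6.35) in Ctrl (-0.64 ± 0.16, FDR 0.007, and -0.44, FDR 0.0563, without mouse 15). The lowest Ctrl mouse lay within the CIE range. The brighter Nova1 probeset, 1426938_at, had an effect of 0.07 at 8h. On the brightest probeset of each gene, 3 of 46 genes were called at 8h, all higher (Hnrnpk, Hnrnpll and Srsf2), beside 3.49% of all genes.

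Few members were called later. At 72h 1 of 143 was called (0.699%, beside 0.528% of all probesets), and 15 had an unadjusted p of 0.05 or less. It was Hnrnpl, a CA-repeat binding protein, on 1445594_at: CIE 72h mice had 4.13 to 4.29 (median 4.25) and Ctrl 72h mice 4.45 to 4.70 (median 4.60), without overlap (-0.38 ± 0.07, FDR 0.002). The level is dim (mean 4.48), and the 7 striatal markers were again all higher in CIE mice at 72h, with list means of 8.76 to 10.5 in CIE and 8.81 to 9.55 in Ctrl and 0 called. At 7d 1 of 143 was called (beside 0.948% of all probesets), and 17 had an unadjusted p of 0.05 or less. It was Mbnl1, the muscleblind protein that expanded CUG repeats sequester in myotonic dystrophy. On 1457924_at CIE 7d mice had 5.25 to 5.69 (median 5.47) and Ctrl 7d mice 5.96 to 6.29 (median 6.21), and every CIE mouse lay below every Ctrl mouse (-0.71 ± 0.14, FDR 0.0024). On the same probeset the effect was -0.48 at 0h (FDR 0.016), 0.02 at 8h and -0.30 at 72h. The bright Mbnl1 probeset, 1416904_at, had effects between -0.03 and 0.06 at the 4 times. By brightest probeset 0 of 46 genes were called at 72h or at 7d, beside 0.445% and 0.726% of all genes.

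Over the 4 contrasts, 25 probesets of 19 genes were called at some time (17.5%, beside 11.1% of all probesets) and 0 at more than 1 time (beside 0.95%), while 118 probesets were never called and 27 genes had none. A moderated F test over the 4 effects together called 25 probesets of 21 genes, 17.5% of members beside 13.6% of all probesets. The 4 Ctrl groups differed on 1 member probeset, 1437267_x_at of Hnrnph1, beside 1.72% of all probesets. This count was 0 to 2 when single mice were left out, 0 with the striatal marker mean as a term, 7 with repeat group as a term and 24 with array weights. The share of all probesets was not counted under these settings, so 1.72% is no measure for them. The CIE medians of 1437267_x_at were 5.67 at 0h, 6.13 at 8h, 5.93 at 72h and 5.59 at 7d. Its Ctrl medians were 6.39, 5.94, 5.77 and 5.62 at the same times.

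Ethanol effects at 8h and 0h were then compared directly. The difference was called for 11 member probesets of 9 genes (7.69%, beside 3.41% of all probesets). It was higher at 8h for 9 of them, which belong to Srsf3 (3 probesets), Srsf2, Hnrnpa2b1, Hnrnph1, Hnrnpc, Hnrnpll and Nova2, and lower at 8h for Hnrnpdl and Nova1. Hnrnph1 1437267_x_at had an effect of 0.65 ± 0.18 at 8h (FDR 0.015) and -0.75 ± 0.17 at 0h, a difference of 1.40 ± 0.25 (FDR 0.00026). Srsf3 1416150_a_at had 0.22 ± 0.07 at 8h and -0.25 ± 0.06 at 0h (difference 0.47 ± 0.09, FDR 0.00091). Hnrnpa2b1 1420365_a_at had 0.18 ± 0.06 at 8h and -0.27 ± 0.06 at 0h (0.45 ± 0.09, FDR 0.00088). Hnrnpc, which binds U-rich stretches of nascent RNA, had 0.18 at 8h and -0.21 at 0h on 1460240_a_at (0.39 ± 0.09, FDR 0.0054), with neither effect called alone. Hnrnpdl 1424252_at had -0.29 at 8h and 0.16 at 0h (-0.45 ± 0.09, FDR 0.00084), and Nova1 1452245_at had -0.64 at 8h and 0.35 at 0h (-0.99 ± 0.22, FDR 0.0025). The count was 7 without CIE 8h mouse 15, 6 without CIE 8h mouse 23 and 7 without repeat group 2.

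**Figure D3:**
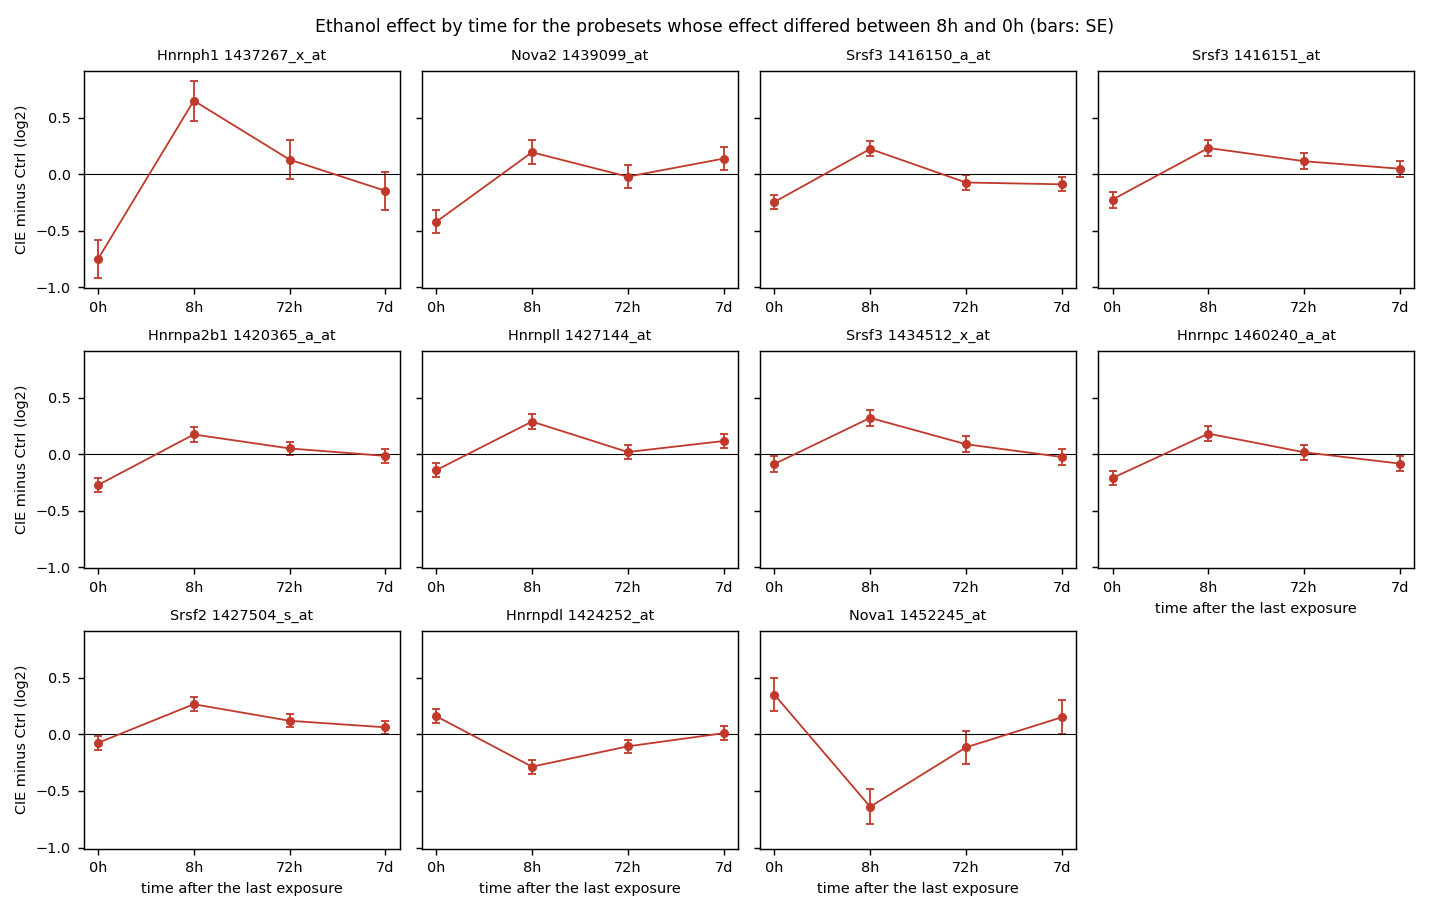
Ethanol effect (CIE minus Ctrl, log2, with SE) at 0h, 8h, 72h and 7d for the 11 probesets whose effect differed between 8h and 0h. In each panel the 8h point is the highest or the lowest of the 4, and the 72h and 7d points lie nearer to 0 than the 0h point in most panels.

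Between 7d and 0h, 2 member probesets of 2 genes differed in ethanol effect (beside 0.273% of all probesets). Rbfox2 1434938_at had -0.07 at 7d and 0.31 at 0h (-0.38 ± 0.08, FDR 0.0092). Hnrnpl 1445594_at had -0.30 at 7d and 0.19 at 0h (-0.49 ± 0.10, FDR 0.0075). The comparisons with 8h and with 7d share the 0h mice. Leaving out single mice gave between 0 and 3 calls here, and with the striatal marker mean as a term there were 0.

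The probesets of a gene were then compared with each other. Of the 34 genes with several (median 4), all probesets shared a sign in 8 genes at 0h (23.5%), 10 at 8h (29.4%), 12 at 72h (35.3%) and 9 at 7d (26.5%). Over the 9010 genes of the array with several probesets (median 2, so that a shared sign needs fewer to match), the shares were 43.1%, 38.8%, 39.5% and 38.8% at the same times. To test such differences, the value of one probeset was subtracted from that of another in every mouse, and the ethanol effect on this difference was fitted over all 30372 pairs of probesets of one gene, of which 227 belonged to members. At 0h 9 member pairs of 8 genes were called (3.96%, beside 5.21% of all pairs), and at 8h 14 pairs of 9 genes (6.17%, beside 3.8%). At 72h 0 were called (beside 0.382%), with 22 at an unadjusted p of 0.05 or less, and at 7d 1 was (beside 0.978%). In all 9 pairs at 0h, and in 9 of the 14 at 8h, the 2 probesets had effects of opposite sign, which a call on the difference favours: over the array 84.2% of the called pairs at 0h and 84.7% at 8h had opposite signs.

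Hnrnpf gave the pair of smallest p at 0h. The value of 1437099_x_at minus that of 1456664_x_at lay between -1.61 and -1.45 (median -1.52) in CIE 0h mice and between -2.06 and -1.77 (median -1.96) in Ctrl 0h mice. The groups did not overlap, and the effect on the difference was 0.43 ± 0.08 (FDR 0.00037). This pair was called at 3 times, and 1 other, of Hnrnpa2b1, at 2. The effect was 0.33 ± 0.08 at 8h (FDR 0.0087), 0.30 ± 0.08 at 72h (FDR 0.0376) and 0.37 ± 0.08 at 7d (FDR 0.0064), where CIE mice had -1.60 to -1.46 and Ctrl mice -1.99 to -1.80. The call at 0h held in each of the 12 refits that left out 1 mouse, and that at 7d was lost in 8 of 12 (FDR up to 0.0201, without CIE mouse 65). Both probesets carry the suffix _x_at, which Affymetrix gives to probesets whose probes may also bind other transcripts.

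Srsf2 1427504_s_at minus 1427816_at was 3.80 to 4.20 (median 4.07) in CIE 0h mice and 4.23 to 4.72 (median 4.48) in Ctrl 0h mice, without overlap (-0.45 ± 0.10, FDR 0.0014). Celf2 1423895_a_at minus 1439777_at was 0.74 to 0.83 (median 0.79) in CIE and 0.46 to 0.60 (median 0.57) in Ctrl. Both are bright probesets of Celf2, and the groups did not overlap (0.24 ± 0.05, FDR 0.0017). Hnrnph1 1415872_at minus 1437267_x_at was 6.26 to 6.88 (median 6.59) in CIE and 5.36 to 6.01 (median 5.85) in Ctrl (0.76 ± 0.17, FDR 0.0023), again without overlap.

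Srsf6 1416721_s_at minus 1448454_at was 0.54 to 1.22 (median 0.90) in CIE 0h mice and 0.37 to 0.69 (median 0.48) in Ctrl 0h mice (0.38 ± 0.09, FDR 0.0054), with effects of 0.10 and -0.27 on the single probesets. Hnrnpa2b1 1433829_a_at minus 1433830_at was 0.84 to 0.99 (median 0.95) in CIE and 0.40 to 0.76 (median 0.53) in Ctrl (0.37 ± 0.09, FDR 0.0055), without overlap. Neither of these Hnrnpa2b1 probesets was called alone. When single mice were left out, the pair lost its call in 8 of 12 refits (FDR up to 0.0164, without Ctrl mouse 2) and the Srsf6 pair in 7 (up to 0.0271, without CIE mouse 5). Srsf1, the prototype SR protein, and Hnrnpr were the other genes with a called pair at 0h. Leaving out single mice gave between 4 and 10 called pairs at 0h, the lowest without CIE mouse 43 or Ctrl mouse 12, and 5 without CIE mouse 5, CIE mouse 17 or Ctrl mouse 56. Among pairs with no suffix _x_at, _s_at or _a_at, 0 were called. How many such pairs there were, and the share called over the array, was not counted.

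**Figure D4:**
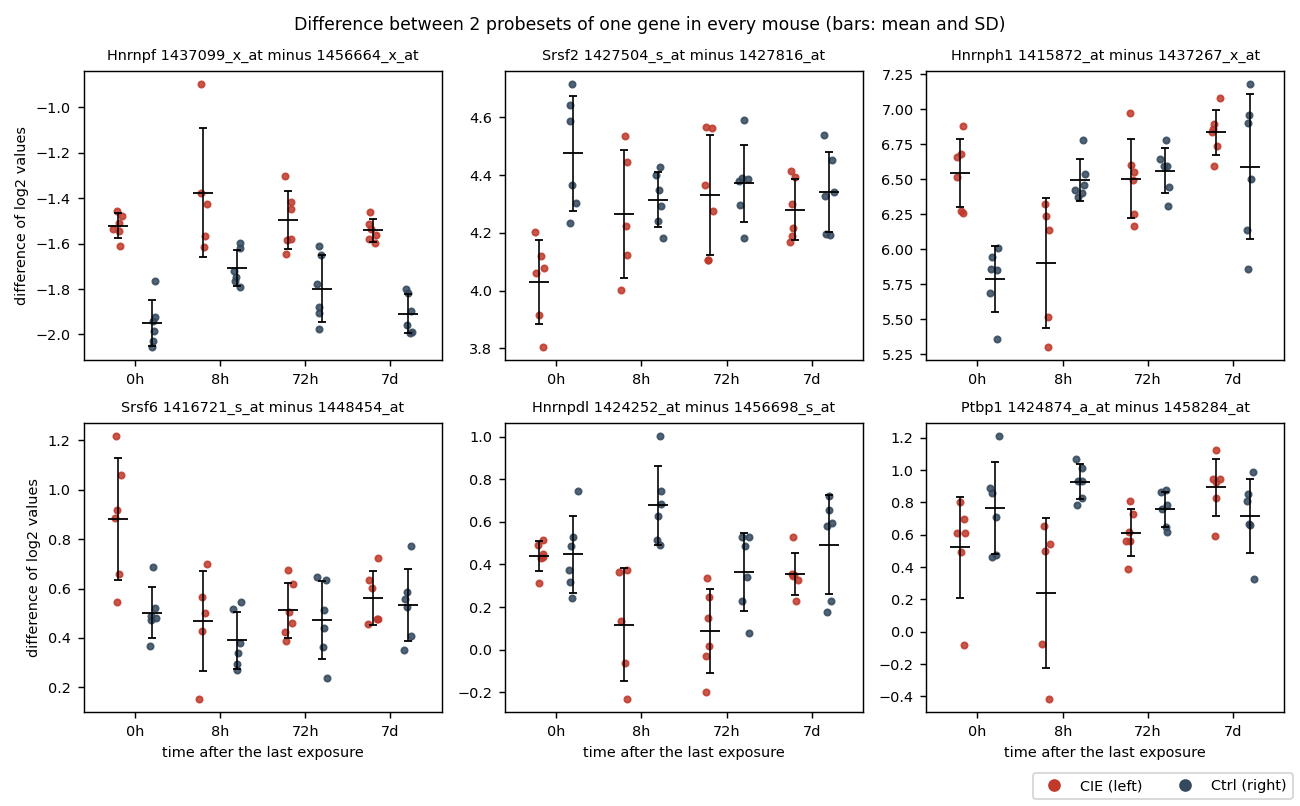
Difference between the log2 values of 2 probesets of one gene in each of 47 mice (points) for 6 genes by time, CIE left of Ctrl, with mean and SD as bars. Hnrnpf differences are higher in CIE at every time, and those of Srsf2 and Hnrnph1 do not overlap between CIE and Ctrl mice at 0h.

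At 8h the pair of smallest p was in Hnrnpdl. The value of 1424252_at minus that of 1456698_s_at was 0.14, 0.36, 0.37, -0.06 and -0.23 in CIE 8h mice 40, 51, 69, 15 and 23, and 0.49 to 1.00 (median 0.66) in Ctrl 8h mice. No CIE mouse reached the Ctrl range (-0.56 ± 0.11, FDR 0.0016, and -0.52, FDR 0.0089, without mouse 15). Ptbp1 1424874_a_at minus 1458284_at was 0.50, 0.54, 0.66, -0.42 and -0.08 in CIE and 0.78 to 1.07 (median 0.93) in Ctrl, also without overlap (-0.69 ± 0.15, FDR 0.0029, and -0.52, FDR 0.0234, without mouse 15). Within repeat group 1 this effect was -0.44 and within repeat group 2 -1.10.

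Hnrnpf 1437099_x_at minus 1450963_at was 0.48, 0.43, 0.53, 1.67 and 1.21 in CIE and 0.02 to 0.28 (median 0.16) in Ctrl (0.70 ± 0.15, FDR 0.0023). Mice 15 and 23 were far above the other CIE mice, and the effect was 0.39 within repeat group 1, 1.19 within repeat group 2 and 0.49 (FDR 0.0189) without mouse 15. Hnrnpk 1423684_at minus 1454692_x_at was 3.89, 4.01, 3.81, 2.54 and 4.06 in CIE and 4.19 to 4.49 (median 4.31) in Ctrl (-0.65 ± 0.15, FDR 0.0036, and -0.37, FDR 0.0162, without mouse 15). Hnrnpab 1431349_at minus 1455855_x_at was -6.85, -6.58, -6.63, -6.95 and -6.40 in CIE and -6.39 to -5.91 (median -6.23) in Ctrl (-0.48 ± 0.11, FDR 0.0045, and -0.42, FDR 0.0271, without mouse 15). Hnrnpa2b1 1433829_a_at minus 1433830_at was 0.83, 0.81, 0.92, 1.78 and 1.17 in CIE and 0.62 to 0.75 (median 0.69) in Ctrl (0.41 ± 0.10, FDR 0.0053, and 0.24, FDR 0.0365, without mouse 15). In these 4 pairs no CIE mouse lay within the Ctrl range. Hnrnpr, Srsf6 and Celf1 completed the 9 genes. The number of called pairs at 8h was 2 without CIE mouse 15, 4 without CIE mouse 23, 4, 3, 6 and 9 without Ctrl mice 66, 75, 79 and 32, and 31, 29 and 24 without CIE mice 40, 51 and 69.

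Some probesets of splicing factors varied far more among mice of one group than others of the same gene. The standard deviation within groups was 0.5 or more, a limit set after the values were seen, for 7 member probesets of 7 genes (4.90%) and for 952 of all probesets (2.11%), while its median was 0.15 over members and 0.17 over all probesets. The 7 were Celf1 1425932_a_at, Srsf11 1439095_at, Mbnl1 1440315_at, Srsf5 1423130_a_at, Hnrnpr 1452030_a_at, Hnrnpl 1424101_at and Rbfox2 1418245_a_at. They were low in the same mice. In CIE 8h mouse 15 their values minus the median of the other CIE 8h mice ran between -3.14 and -0.57, for Hnrnpr 6.26 beside 9.39 and for Celf1 4.38 beside 7.24. In CIE 0h mouse 17 they ran between -2.23 and -1.20, and in CIE 72h mouse 3 between -2.24 and -1.50, against the other mice of the group.

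Ctrl mice held low members as well. Ctrl 0h mice 2 and 20 each had 7 member probesets more than 1 log2 unit below the median of their group's other mice, beside 9 in CIE 0h mouse 17, 16 in CIE 8h mouse 15, 6 in CIE 8h mouse 23, 12 in CIE 72h mouse 3 and 3 in Ctrl 7d mouse 46. In 37 of the 47 arrays no member was that low. In mouse 15 the share was 11.2% of members and 5.70% of all probesets. The 7 were chosen for their spread. The 17 other probesets of 6 of these genes had deviations between -1.23 and 1.41 (median 0.04) in CIE 8h mouse 15, between -0.57 and 0.28 (median -0.17) in CIE 0h mouse 17 and between -0.55 and 0.33 (median 0.03) in CIE 72h mouse 3. Srsf5, an SR protein that rests on 1 probeset, had an effect of -0.62 at 8h (FDR 0.26) with a standard deviation within groups of 0.63, and 10.8 at its lowest in CIE 72h mouse 3 beside a median of 12.9 in the other CIE 72h mice. None of the 7 probesets was called at any time. What set these arrays apart was not tested.

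**Figure D5:**
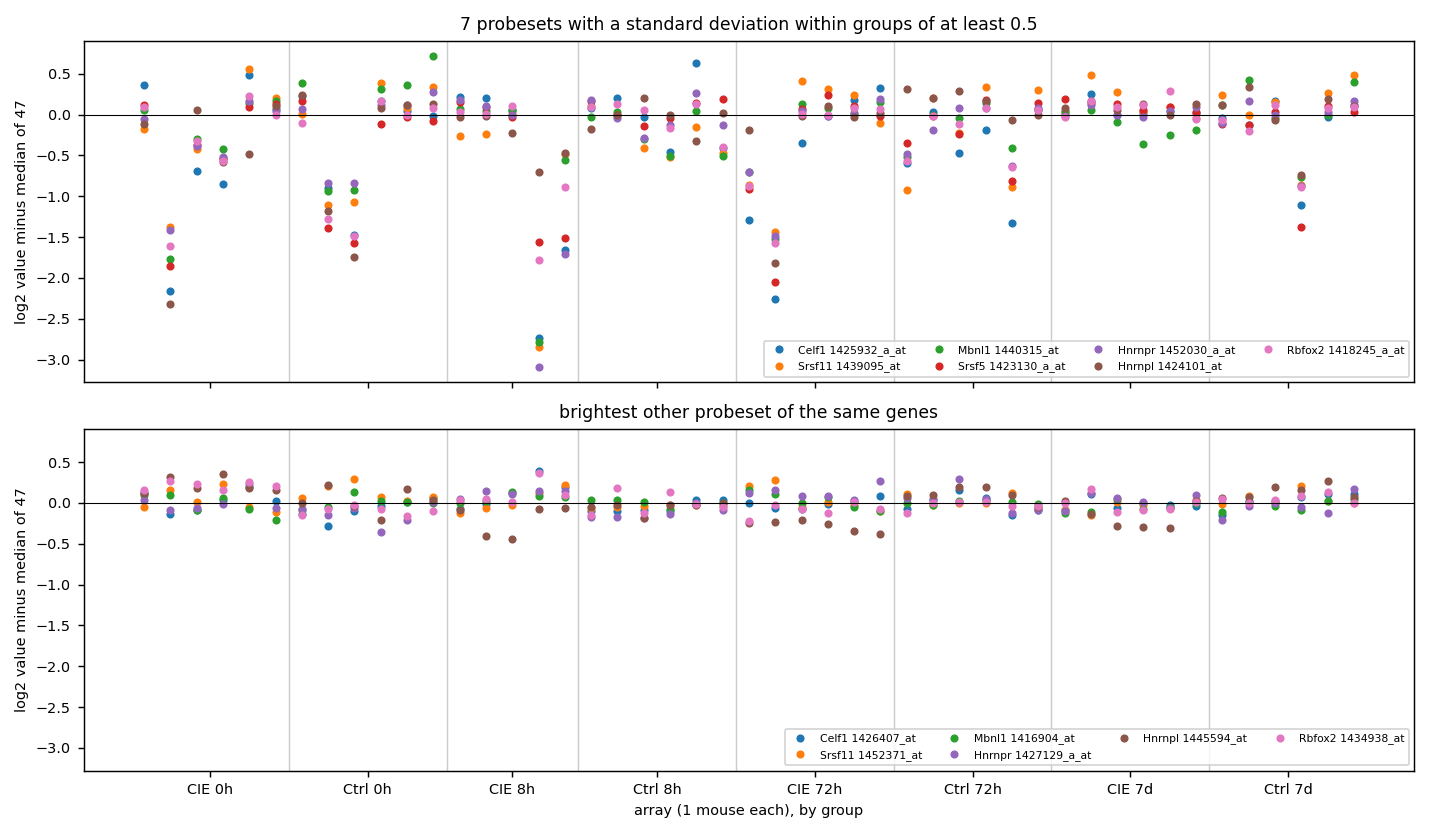
Log2 value minus the median over 47 arrays for the 7 probesets with the widest spread within groups (top) and for the brightest other probeset of the same genes (bottom; Srsf5 has no other), with arrays along the axis by group, CIE left of Ctrl at each time. In the top panel most of the 7 drop together in the same few mice of CIE 0h, Ctrl 0h, CIE 8h and CIE 72h, and in the bottom panel values in these mice lie nearer to 0. In Ctrl 72h mouse 52 and Ctrl 7d mouse 46, 2 and 3 of all members were more than 1 below the median of their group's other mice.

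Other genes of the splicing machinery and of RNA-binding proteins were read from their brightest probesets. Of all genes so read, 7.44% were called at 0h, 3.49% at 8h, 0.445% at 72h and 0.726% at 7d. Of 24 genes for SR-related proteins and SR protein kinases, 1 was called at 0h (4.17%), Srpk1, a kinase that phosphorylates SR proteins, which fell (-0.38, FDR 0.0042). The median effect of this list was -0.06 at 0h beside 0.01 over all genes. At 8h Tra2b, a partner of SR proteins, rose (0.25, FDR 0.00094) and Clk4, a kinase of SR proteins, fell (-0.28, FDR 0.0095), or 8.33% of the list.

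Of 66 measured genes of the core spliceosome, 3 fell and 0 rose at 0h (4.55%), with a median effect of -0.05: Ddx39a, an RNA helicase (-0.32, FDR 7.3e-05), Prpf38a of the spliceosomal B complex (-0.30, FDR 0.0012) and Sf3a3 of the U2 particle (-0.18, FDR 0.0085). At 8h and 72h 1 was called (1.52% at each time) and rose, Snrpf, a core Sm protein (0.21, FDR 0.0022, and 0.26, FDR 0.00057). Of 62 measured genes of other RNA-binding proteins, not all of them splicing regulators, 4 fell and 0 rose at 0h (6.45%). These were Elavl4, Khdrbs3, Rbm20 and Rbm4b, with effects between -0.61 and -0.25. At 8h Cpeb2 (0.48) and Fubp3 (0.38) rose and Rbm5 (-0.28) fell (4.84% called), and at 7d Rbmxl1 (0.24) rose (1.61%).

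Markers of the cells in the tissue were called in few cases. Of 4 markers of excitatory neurons Neurod6 fell at 0h (-0.38, FDR 0.0083), while the other 3 had positive effects (Camk2a 0.11, Tbr1 0.17 and Slc17a7 0.31) and were not called. At 8h P2ry12 fell (-0.57, FDR 0.002) among 5 microglia markers, of which 2 had positive effects (median -0.04). Sst also fell at 8h (-0.29, FDR 0.0086) among 5 markers of inhibitory neurons, of which 1 had a positive effect (median -0.17). With the striatal marker mean as a term, 12 member probesets were called at 0h and 12 at 8h, while Hnrnpd 1457568_at (FDR 0.0131) and the 0h pairs of Srsf6 (FDR 0.0114) and Hnrnpa2b1 (FDR 0.0156) lost their calls, as Ptbp2 did. The part of cell makeup in the member effects was not tested beyond this term.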

How the data were processed

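The authors deposited log2 expression values made with RMA (versions not given in the sources used here). The methods describe quantile normalization within hybridization batches, then across arrays, and then ComBat. They name PFC as an exception, in which repeat group was the only factor adjusted for. Since repeat group 2 holds 8h arrays only, that adjustment can shift values at 8h, and repeat group as a term was fitted to adjusted values. All 47 columns were used as deposited. Annotation gave 34945 probesets 1 symbol, 932 several and 9160 none listed. Members kept their symbols after an update through Entrez identifiers (143 of 143).

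One limma model (limma 3.58.1, R 4.3.3) with 8 group means was fitted to all probesets, with Benjamini-Hochberg adjustment over them. Pairs were fitted likewise on within-mouse differences. Genes with a called probeset were named by that of smallest p, and values are given for up to 6 higher, 6 lower and 6 pairs per time. Further members were named after their values were seen. The members, lists and tests were chosen with earlier results of these data known. On simulated data with independent normal noise, and 1 spread per probeset in all arrays, 69.5% of added changes of 0.5 were recovered at 0h and 57% at 8h. For pairs the shares were 39% and 32%. The real arrays were less even, with weights of 0.10 for CIE 8h mouse 15 and 3.79 for Ctrl 8h mouse 75, so recovery in them can differ. No 2 arrays were identical (0 pairs). The number of arrays limits the precision. Figures were drawn with matplotlib, and promoters came from RefSeq tables.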

Additional observations from a re-analysis of the deposited data

Results flagged for a closer look

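Dixon's test marked 1 mouse as far from the rest in 5 of the 76 groups tested, where chance marks about 1 in 20. Ptbp2 1423471_at was 10.03 in CIE 0h mouse 17, beside 9.71 to 9.82 in the other CIE 0h mice, and 9.77 in Ctrl 0h mouse 2, beside 9.50 to 9.58 in the other Ctrl 0h mice. Hnrnpk 1454692_x_at was 9.21 in CIE 8h mouse 15, beside 7.93 to 8.16, and Hnrnpk 1423684_at minus 1454692_x_at was 2.54 in the same mouse, beside 3.81 to 4.06. Hnrnpdl 1424252_at was 11.05 in Ctrl 8h mouse 32, beside 10.92 to 10.96.

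The ethanol effect differed between 8h and 0h, by limma's test of the difference itself, for 11 probesets. The 8h effect minus the 0h effect was 0.47 for Srsf3 1416150_a_at, 0.46 for 1416151_at and 0.41 for 1434512_x_at of the same gene, and 0.34 for Srsf2 1427504_s_at. It was 0.45 for Hnrnpa2b1 1420365_a_at, 0.43 for Hnrnpll 1427144_at, 0.39 for Hnrnpc 1460240_a_at, 1.40 for Hnrnph1 1437267_x_at and 0.62 for Nova2 1439099_at. It was -0.45 for Hnrnpdl 1424252_at and -0.99 for Nova1 1452245_at. Leaving out single mice ended this call in 15 of 23 refits for Srsf2, 12 for Srsf3 1434512_x_at, 6 for Hnrnpc, 5 for Nova2 and 1 for Srsf3 1416151_at (FDR 0.010002 without CIE 8h mouse 23). The 7d effect minus the 0h effect was -0.38 for Rbfox2 1434938_at and -0.49 for Hnrnpl 1445594_at, and the call was lost in 18 and 15 of 24 refits.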

How the results depend on the processing

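Each setting refitted 38 to 51 of the 51 named effects, and 0 of these changed sign. The effects were named because they were called on the same arrays, so a kept sign says little about how firm they are. Calls were lost for 30 of 38 with each time fitted alone and for 21 of 51 without repeat group 2. They were lost for 23 of 51 without the 3 arrays of lowest correlation. With 1 mouse left out, 31 of 51 lost their call in at least 1 refit. With array weights 3 of 51 were lost, and with repeat group as a term 0. The counts of calls that follow, and those of refits given above, are of members alone. Shares over the whole array were not counted under these settings, apart from those by brightest probeset. A changed count is therefore not a result particular to the members. With an FDR of 0.05 or less, member calls numbered 25 at 0h, 26 at 8h, 3 at 7d, 18 for 8h against 0h, 5 for 7d against 0h, 43 over the 4 effects and 7 over the Ctrl groups, and called pairs 25, 54, 2 and 3 at 0h, 8h, 72h and 7d. With array weights they were 21, 20, 2 and 8 at the 4 times, 17, 7, 43 and 24 in the other tests, and 32, 33, 3 and 12 for pairs. With repeat group as a term they were 19 at 8h, 2 at 7d and 7 over Ctrl groups, with 44 pairs at 8h and 2 at 7d. Without repeat group 2 they were 4 at 8h, 2 at 7d, 7 for 8h against 0h and 6 over Ctrl groups, with 23, 8, 3 and 2 pairs. With each time fitted alone they were 4 at 0h, 0 at 8h and 0 at 72h, with 5, 0 and 2 pairs at 0h, 8h and 7d, from fewer arrays. With trend and robust variances they were 1 for 7d against 0h and 2 over Ctrl groups. With probesets of mean level under 6 left out, 0 were called at 72h, at 7d, for 7d against 0h and over Ctrl groups. With suffixes _x_at, _s_at and _a_at left out they were 7 at 0h, 4 at 8h, 5 for 8h against 0h, 15 over the 4 effects and 0 over Ctrl groups, with 0, 2 and 0 pairs at 0h, 8h and 7d, from fewer probesets. With the striatal mean as a term they were 0 for 7d against 0h and over Ctrl groups, with 2 pairs at 7d. By brightest probeset 2 genes were called at 0h, and limma's diffSplice called 4 genes at 0h and 0 at 7d. Without the 3 arrays of lowest correlation, an alternative chosen after seeing the data, they were 2 at 8h, 2 at 7d, 6 for 8h against 0h and 1 for 7d against 0h, with 2 pairs at 8h and 4 at 7d. Leaving out 1 mouse gave 8 to 12 calls at 0h, 2 to 17 at 8h, 1 to 1 at 72h, 1 to 2 at 7d, 6 to 13 for 8h against 0h, 0 to 3 for 7d against 0h, 19 to 28 over the 4 effects and 0 to 2 over Ctrl groups, and 4 to 10, 2 to 31, 0 to 0 and 0 to 2 called pairs. Where no cause is given, the cause was not tested. No paired analysis was possible because each mouse number occurs in 1 group only.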
